A study of Homo sapiens with 6 samples.

Results

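Transcripts of 32 genes for centromere and kinetochore proteins were followed in HepG2, an established human hepatocellular carcinoma line, in which FTO had been knocked down by siRNA, with control siRNA cells beside them. The 32 genes were listed by symbol, and all of them were found among the 60483 gene identifiers counted in each library. They comprise 16 genes of the inner kinetochore, 15 of the outer kinetochore and CENPJ, which carries the family name but encodes a centriole protein. Each group had 3 libraries of total RNA, numbered 1 to 3. Cells of passage 16 to 19 grown with 10% fetal bovine serum were used for both groups, and the groups differ, as far as the labels say, only in the siRNA. FTO encodes an RNA demethylase that acts on N6-methyladenosine, and the series asks which genes it regulates in this cancer. No source used here gives the siRNA's sequence, dose or timing.

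The kinetochore is the protein assembly that forms on the centromere of each chromosome and attaches it to spindle microtubules. Its inner part is built on nucleosomes with the histone variant CENP-A and on a network of CENP proteins that stays at the centromere through the cell cycle. Its outer part, with the KNL1, MIS12 and NDC80 complexes at its core, is assembled for mitosis and binds microtubules, and the motor CENP-E and the large coiled-coil protein CENP-F form part of its outermost layer, the corona. Many of these genes are transcribed most strongly in G2 and mitosis, so their mRNA is abundant in dividing cells and scarce in the resting hepatocytes of adult liver.

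After FTO siRNA 4 of the 32 genes fell and none rose (none was higher at an unadjusted p under 0.05, and DESeq2 called 7 lower and 0 higher). They were the corona genes CENPE, at 42.4% of its control mean, and CENPF, at 56.5%, the scaffold gene KNL1, at 54.3%, and the inner kinetochore gene CENPI, at 46.4%. The test was edgeR's quasi-likelihood test with Benjamini-Hochberg adjustment over all 15025 genes tested and a threshold of 0.05. Over these genes 3.83% fell and 7.53% rose. DESeq2 called 16.7% of them in either direction, and its share called lower is not given here. The outer kinetochore had 3 of its 15 genes lower, with a median log2 fold change of -0.44, and the inner kinetochore 1 of 16, with a median of -0.17. The median over the 32 members was -0.39 and that over all tested genes 0.04. All 32 members passed the filter on low counts. Of these, 24 had a log2 fold change below 0, as had 46.5% of all tested genes, and 12 had an unadjusted p under 0.05 and were lower, as were 11.5% of all tested genes. In bulk RNA, fewer dividing cells and less of an mRNA in each cell cannot be told apart.

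**Figure D1:**
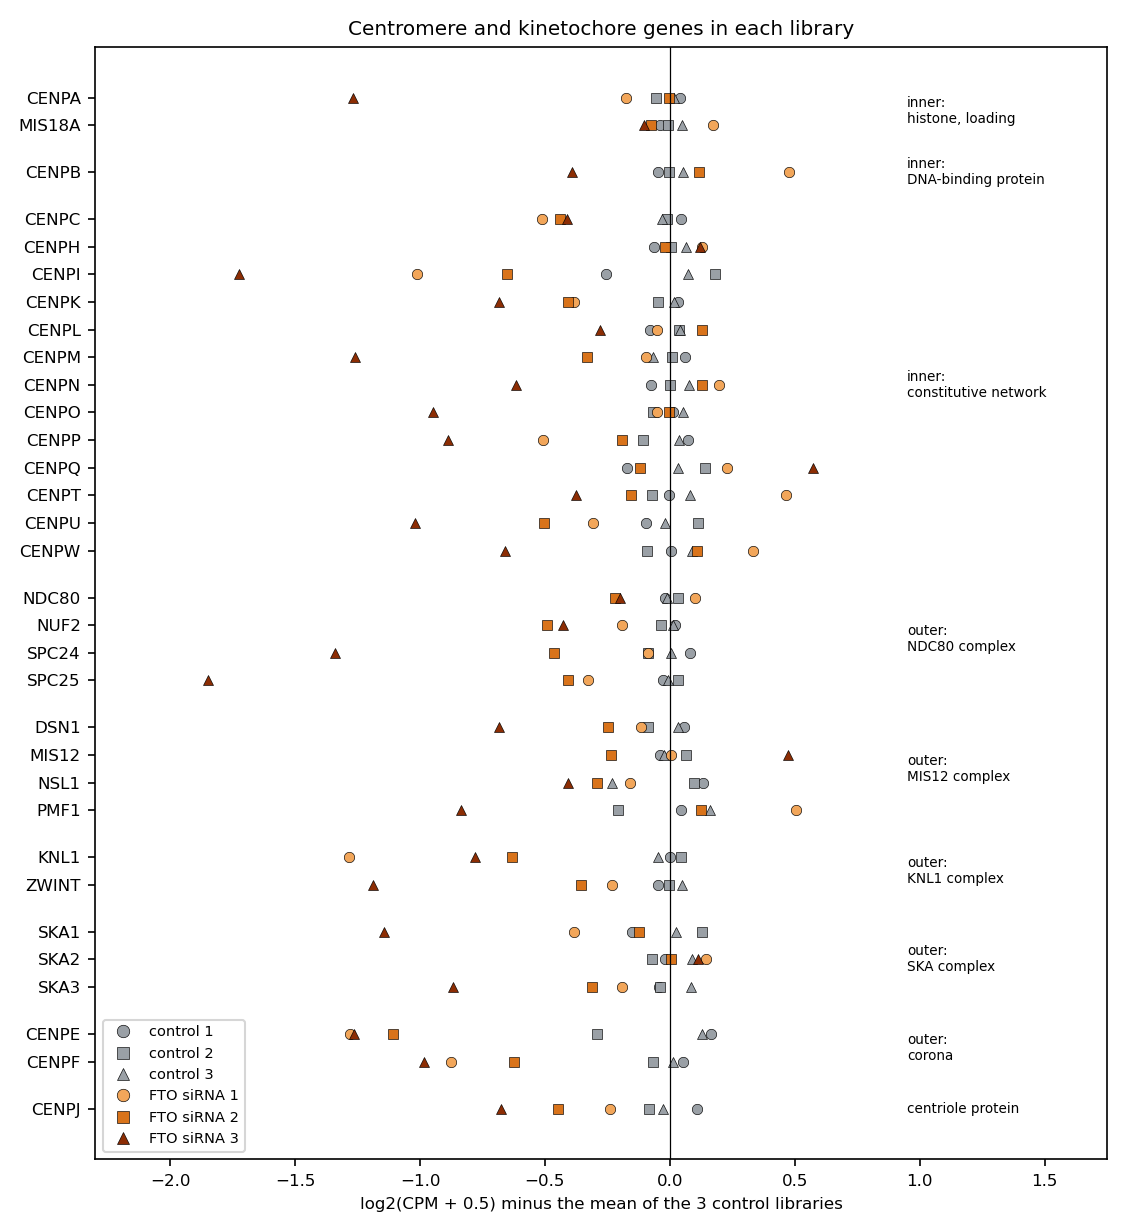
Each row is a gene, in the order of its role, and each point a library: the x axis gives log2(CPM + 0.5) in that library minus the mean of the 3 control libraries. CENPE, CENPF, KNL1 and CENPI are among the 15 genes with their 3 FTO siRNA points to the left of every control. FTO siRNA 3 is the lowest of the 6 libraries for 23 of the 32 genes, and its share over all tested genes was not counted.

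Levels are given as CPM, read counts relative to the library's total after TMM scaling, and log2 fold changes compare FTO siRNA with control siRNA and carry their standard error. Total counts were between 15713279 and 18390953 per library, and the 32 genes together took 21032 to 30378 of them. At this depth 3 counts in a library stand for 0.153 to 0.190 CPM, far under the lowest member value of 5.26 CPM (CENPA in FTO siRNA 3). FTO itself (chromosome 16) was at 40.8, 37.96 and 38.8 CPM in the controls and at 11.2, 14.5 and 5.21 CPM in the libraries labelled FTO siRNA, a log2 fold change of -1.93 ± 0.32 (edgeR adjusted p = 0.00932). Markers of the hepatocyte lineage were present, with AFP at a control mean of 11797 CPM and ALB at 4726 CPM, and none of the 10 passed the test (1 had an unadjusted p under 0.05, and DESeq2 called 1 lower). All 10 had a log2 fold change below 0, with a median of -0.35 and APOB the lowest at 37.97% of its control mean (adjusted p = 0.065), and the part of this in the kinetochore values was not tested. Whether the libraries within a group stem from independent cultures is not labelled, so each p-value reflects sample spread that may be technical. FTO siRNA 3 stood apart from the other libraries of its group: the chi-square of its counts over degrees of freedom was 118 against FTO siRNA 1 and 82.6 against FTO siRNA 2, which gave 20.4 between them. Values without it are therefore given where they differ by over 1.5 times or change a call or sign.

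CENPE encodes the mitotic kinesin that carries chromosomes to the spindle equator. It was at 204, 149 and 199 CPM in controls 1, 2 and 3 and at 74.6, 84.1 and 75.4 CPM in FTO siRNA 1, 2 and 3. The groups did not overlap, and the spread lay mainly in control 2, the lowest of the controls. The means were 184 ± 30.5 and 78.0 ± 5.24 CPM (SD, n = 3 each), and the gene fell by 1.24 ± 0.16 on the log2 scale (edgeR adjusted p = 0.00426). Among the members CENPE alone kept its call when any of the 6 libraries was left out, with adjusted p-values from 0.000934 to 0.0317.

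CENPF encodes a protein of the nuclear matrix that moves to the kinetochore in G2. Its levels were 283, 261 and 276 CPM in the controls and 149, 177 and 138 CPM after FTO siRNA. The 3 treated libraries lay well under the controls, with FTO siRNA 2 nearest to them. CENPF fell by 0.82 ± 0.15 on the log2 scale (edgeR adjusted p = 0.0123). The call was lost without control 1, control 2 or control 3, where the log2 fold change was between -0.86 and -0.82 and the highest adjusted p was 0.0727.

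Windows upstream of the start of CENPE, CENPF and CENPI are printed here because these are the genes that fell and have an entry in the RefSeq promoter table (GRCh38.p14). Each window runs from 250 bases before the start to 30 after it, 5′ to 3′ on the gene's strand. Capitals mark matches on either strand to short words searched in all promoters. The word TTTGAA is the core of the cell cycle gene homology region (CHR), a site in promoters of G2 and mitosis genes. The word TTTAAA is a variant of it, added after the CENPE sequence was seen. The word CCAAT is the box bound by NF-Y, and E2F words, spelled out with the promoter counts further on, are bound by E2F factors.
CENPE (chr4:103198314-103198593, strand minus): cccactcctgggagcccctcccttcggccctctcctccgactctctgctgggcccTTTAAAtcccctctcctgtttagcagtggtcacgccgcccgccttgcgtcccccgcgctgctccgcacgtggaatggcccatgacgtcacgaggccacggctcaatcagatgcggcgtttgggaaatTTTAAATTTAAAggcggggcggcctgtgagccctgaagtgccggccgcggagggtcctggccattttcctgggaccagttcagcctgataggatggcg
CENPF (chr1:214602945-214603224, strand plus): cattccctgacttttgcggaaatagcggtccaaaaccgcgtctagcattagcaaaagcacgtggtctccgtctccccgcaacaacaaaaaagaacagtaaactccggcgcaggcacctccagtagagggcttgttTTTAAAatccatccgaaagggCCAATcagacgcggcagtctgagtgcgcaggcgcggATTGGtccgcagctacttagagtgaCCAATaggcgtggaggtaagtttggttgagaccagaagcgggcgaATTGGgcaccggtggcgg
CENPI (chrX:101100808-101101087, strand plus): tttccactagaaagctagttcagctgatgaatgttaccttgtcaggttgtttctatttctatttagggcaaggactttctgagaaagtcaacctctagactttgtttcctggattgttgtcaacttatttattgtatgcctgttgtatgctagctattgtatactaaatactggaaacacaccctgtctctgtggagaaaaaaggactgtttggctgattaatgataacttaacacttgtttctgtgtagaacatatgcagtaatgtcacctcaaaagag
The CENPE window holds TTTAAA at 3 places and none of the other words. The CENPF window holds CCAAT at 4 places and the CHR variant at 1, and a CHR core lies 41 bases after the start, past the printed stretch. The CENPI window holds none of the words.

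**Figure D2:**
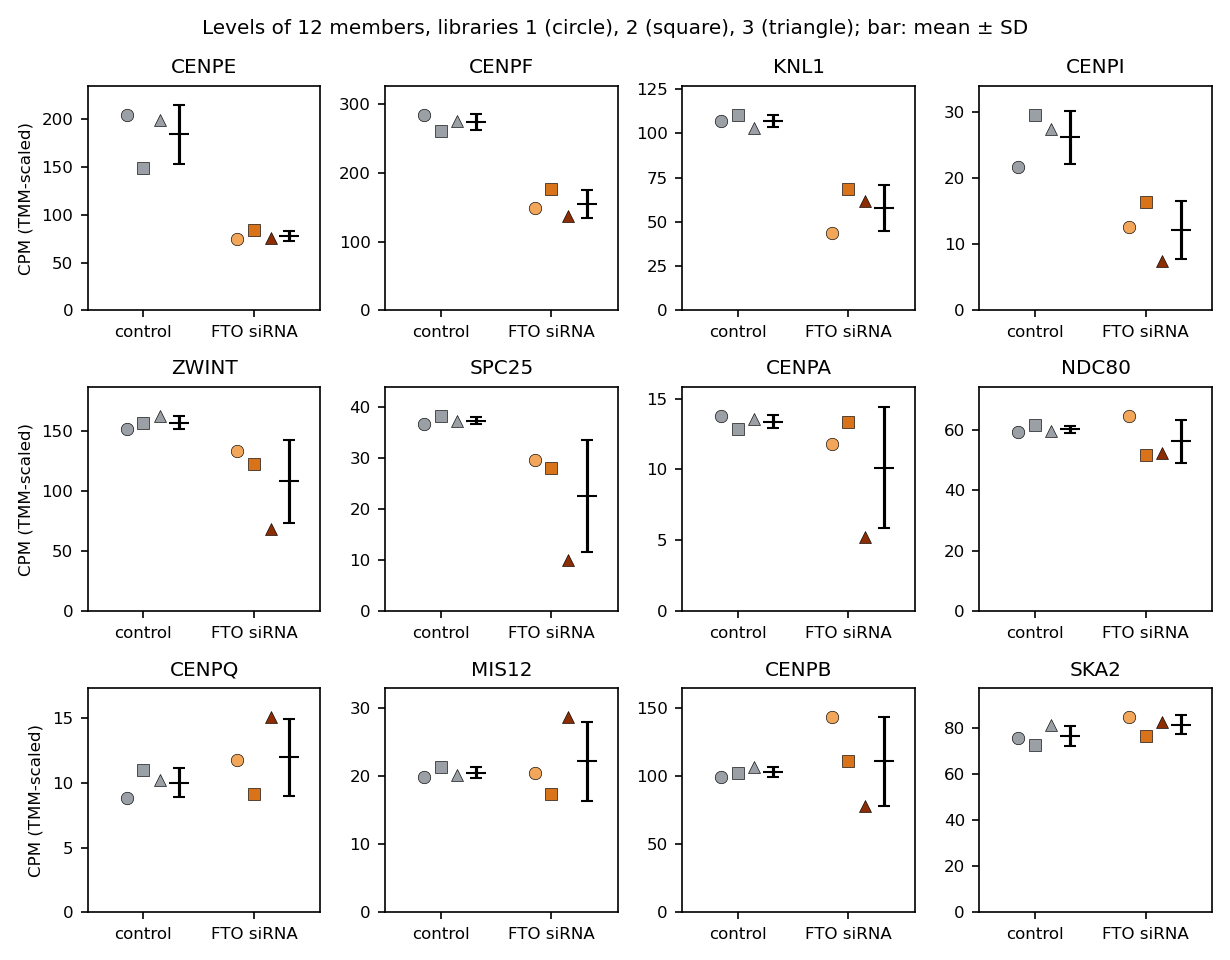
TMM-scaled CPM (y axis, from 0) of 12 members in the control and FTO siRNA groups; circles, squares and triangles are libraries 1, 2 and 3 and the bar is the mean ± SD of the 3. CENPE, CENPF, KNL1, CENPI, SPC25 and ZWINT are apart between groups, and for SPC25 and ZWINT the triangle of FTO siRNA 3 lies well under the other 2 treated libraries.

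KNL1 is the scaffold that recruits checkpoint kinases to the outer kinetochore, and ZWINT binds to it. KNL1 was at 107, 110.2 and 103 CPM in the controls and at 43.5, 68.6 and 61.9 CPM after FTO siRNA. The controls lay close together and FTO siRNA 1 was the lowest. KNL1 fell by 0.88 ± 0.18 on the log2 scale (edgeR adjusted p = 0.0193), and the call was lost without control 1, control 2 or control 3 (highest adjusted p 0.0913). ZWINT was at 151, 156 and 162 CPM in the controls and at 133, 122 and 68.3 CPM after FTO siRNA. Its groups were apart, with FTO siRNA 3 far under the other treated libraries, and it did not pass (log2 fold change -0.54 ± 0.23, edgeR adjusted p = 0.176).

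The NDC80 complex is the main microtubule binder, a rod with NDC80 and NUF2 at the microtubule end and SPC24 and SPC25 at the kinetochore end. None of the 4 passed (1, NUF2, had an unadjusted p under 0.05, and DESeq2 called 0), and their median log2 fold change was -0.47. NDC80 was at 59.4, 61.5 and 59.8 CPM in the controls and at 64.5, 51.6 and 52.4 CPM after FTO siRNA, so its groups overlapped (log2 fold change -0.10 ± 0.14, edgeR adjusted p = 0.693). SPC25 was at 36.7, 38.3 and 37.3 CPM in the controls and at 29.7, 28.1 and 10.01 CPM after FTO siRNA, with a log2 fold change of -0.73 ± 0.35 (adjusted p = 0.213). The groups were apart for SPC25. FTO siRNA 3 thus had the lowest level of SPC25 while its NDC80 level was close to that of FTO siRNA 2. SPC24 had the same pattern, at 26.3, 23.3 and 24.9 CPM in the controls and 23.4, 17.9 and 9.5 CPM after FTO siRNA (log2 fold change -0.56 ± 0.29, and -0.30 ± 0.15 without FTO siRNA 3), and its groups overlapped. NUF2 was lower in each treated library than in every control, at 17.9 to 22.2 against 24.8 to 25.8 CPM (log2 fold change -0.37 ± 0.15, adjusted p = 0.157). Of the 50-base words of SPC25, 12.2% occur in other genes, so reads of this gene are less certain.

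The MIS12 complex joins the inner to the outer kinetochore. None of its 4 genes passed (0 had an unadjusted p under 0.05, and DESeq2 called 0), and the median was -0.14. MIS12 was at 19.9, 21.4 and 20.1 CPM in the controls and at 20.5, 17.3 and 28.6 CPM after FTO siRNA, and the control values lay inside the treated range (log2 fold change 0.12 ± 0.21, edgeR adjusted p = 0.758). Without FTO siRNA 3, which held the highest value, the log2 fold change was -0.14. DSN1 was at 47.8 to 52.8 CPM in the controls and at 31.5 to 46.9 CPM after FTO siRNA, apart but not past the threshold (-0.34 ± 0.17, adjusted p = 0.249; -0.21 without FTO siRNA 3). NSL1 and PMF1 overlapped between groups, with log2 fold changes of -0.30 ± 0.16 and 0.02 ± 0.31 (0.30 for PMF1 without FTO siRNA 3). In PMF1, 23.3% of the exon bases are shared with the readthrough gene PMF1-BGLAP on the same strand, so its counts depend on how shared reads were handled.

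The SKA complex follows the ends of shrinking microtubules. None of its 3 genes passed (1, SKA3, had an unadjusted p under 0.05, and DESeq2 called 0). SKA2 was at 75.3, 72.6 and 81.3 CPM in the controls and at 84.5, 76.5 and 82.5 CPM after FTO siRNA, with overlapping groups and a narrow spread (log2 fold change 0.09 ± 0.13, edgeR adjusted p = 0.703). Its log2 fold change was 0.05 without FTO siRNA 3. SKA3 was apart between groups, at 61.1 to 67.0 CPM against 34.3 to 55.1 CPM (-0.44 ± 0.19, adjusted p = 0.175), and SKA1 overlapped (-0.50 ± 0.25, adjusted p = 0.228). In both, FTO siRNA 3 was the lowest library, and without it each had a log2 fold change of -0.28.

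In the inner kinetochore, CENPA encodes the histone H3 variant that marks the centromere, and MIS18A a subunit of the complex that licenses its loading. CENPA was at 13.7, 12.9 and 13.5 CPM in the controls and at 11.8, 13.3 and 5.26 CPM after FTO siRNA. FTO siRNA 1 and 2 lay near the controls and FTO siRNA 3 under them, and the gene did not pass (log2 fold change -0.41 ± 0.31, edgeR adjusted p = 0.436; -0.12 ± 0.15 without FTO siRNA 3). MIS18A was at 19.6 to 20.95 CPM in the controls and at 18.8 to 22.9 CPM after FTO siRNA, a log2 fold change of 0.0023, and of 0.026 without FTO siRNA 3. CENPB encodes the protein that binds a sequence box in centromeric satellite DNA. It was at 99.3, 102 and 107 CPM in the controls and at 143, 111.3 and 78.1 CPM after FTO siRNA. The treated values lay on either side of the controls (log2 fold change 0.11 ± 0.21, adjusted p = 0.781), and the sign of this value turned with the length and GC trend removed (-0.18) and without FTO siRNA 1 (-0.13), while it was 0.28 without FTO siRNA 3.

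CENPI belongs to the subcomplex with CENPH, CENPK and CENPM that links the histone to the rest of the network. It was at 21.7, 29.5 and 27.4 CPM in the controls and at 12.6, 16.4 and 7.51 CPM after FTO siRNA, and the groups did not overlap. Its log2 fold change was -1.11 ± 0.28 (edgeR adjusted p = 0.0374). The call was lost without control 1, control 2, control 3 or FTO siRNA 1, with adjusted p-values of 0.0838, 0.143, 0.103 and 0.0812. Its partners did not pass in this test, though CENPK did in DESeq2 and, in edgeR, without composition factors (adjusted p = 0.0473) and without FTO siRNA 3. CENPK was at 49.2 to 52.1 CPM in the controls and at 31.5 to 39.0 CPM after FTO siRNA (-0.49 ± 0.14, adjusted p = 0.0622). CENPM was at 13.8 to 15.1 against 5.77 to 13.6 CPM (-0.51 ± 0.29, adjusted p = 0.293), with a log2 fold change of -0.24 without FTO siRNA 3 and of -0.84 with the length and GC trend removed. CENPH was at 18.6 to 20.4 against 19.3 to 21.4 CPM, with overlapping groups (0.08 ± 0.15, adjusted p = 0.77, and 0.03 without FTO siRNA 3).

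The other genes of the constitutive network did not pass either, while DESeq2 also called CENPC and CENPU lower. CENPC encodes the protein that binds the CENP-A nucleosome and carries the MIS12 complex. Its levels were 21.1, 20.3 and 19.98 CPM in the controls and 14.2, 14.9 and 15.2 CPM after FTO siRNA, apart with little spread in each group (-0.47 ± 0.15, edgeR adjusted p = 0.079). With the length and GC trend removed the log2 fold change of CENPC was -0.22 (adjusted p = 0.384). CENPL and CENPN, which bind the CENP-A nucleosome together, overlapped between groups (-0.06 ± 0.18 and -0.06 ± 0.21; 0.015 and 0.14 without FTO siRNA 3). Of the subcomplex with CENPO, CENPP, CENPQ and CENPU, CENPU was lower in each treated library, at 13.2 to 22.0004 against 25.6 to 29.6 CPM (-0.60 ± 0.21, adjusted p = 0.0995). CENPP had 8.12 to 13.5 against 14.3 to 16.3 CPM (-0.53 ± 0.21, adjusted p = 0.152; -0.31 with the trend removed). CENPO overlapped (-0.28 ± 0.24), and its log2 fold change was -0.05 without FTO siRNA 3. CENPQ was at 8.81, 11.03 and 10.2 CPM in the controls and at 11.8, 9.14 and 15.1 CPM after FTO siRNA, and its groups overlapped. Its log2 fold change of 0.26 ± 0.23 (adjusted p = 0.488) was the highest among the members with all libraries, but was 0.034 without FTO siRNA 3, where PMF1 and CENPB were higher. CENPT and CENPW, histone-fold proteins that form a second bridge to the NDC80 complex, had log2 fold changes of 0.02 ± 0.22 and -0.02 ± 0.25 (0.16 and 0.20 without FTO siRNA 3). Exons on the opposite strand overlap 42.7% of the exon bases of CENPP, 31.4% of CENPO, 22.8% of CENPN and 19.6% of CENPT, and without strand in the counting such reads cannot be told apart.

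CENPJ, the centriole protein, was at 50.4, 43.99 and 45.8 CPM in the controls and at 39.4, 34.0 and 28.97 CPM after FTO siRNA. Its groups were apart and it did not pass (log2 fold change -0.45 ± 0.16, edgeR adjusted p = 0.106). Over all members the groups did not overlap for 15 genes, each lower after FTO siRNA and none higher. Of all tested genes 17.4% were apart and lower and 19.2% apart and higher.

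The 3 FTO siRNA libraries differed among themselves. The median over the members of log2(CPM + 0.5) against the control mean was -0.14 in FTO siRNA 1, -0.24 in FTO siRNA 2 and -0.68 in FTO siRNA 3, while that of all tested genes was 0.04, 0.01 and 0.02. For the inner kinetochore these medians were -0.05, -0.10 and -0.64, and for the outer -0.19, -0.31 and -0.84. The summed level of the inner genes was 529, 539 and 560.2 CPM in the controls and 581, 512 and 366 CPM after FTO siRNA, so the groups overlapped. The summed level of the outer genes was 1224, 1154 and 1228 CPM in the controls and 862, 867 and 680.02 CPM after FTO siRNA, and the groups did not overlap.

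Without FTO siRNA 3 the medians were -0.02 for the inner and -0.28 for the outer kinetochore, and 10 members fell, where 14.1% of the tested genes fell in that fit. CENPE, CENPF, KNL1 and CENPI were called again. The further 6 were CENPC (log2 fold change -0.52 ± 0.14, edgeR adjusted p = 0.0198), CENPK (-0.43 ± 0.11, adjusted p = 0.019), CENPU (-0.44 ± 0.14, adjusted p = 0.0357), SPC25 (-0.40 ± 0.12, adjusted p = 0.0294), ZWINT (-0.32 ± 0.10, adjusted p = 0.0422) and CENPJ (-0.37 ± 0.12, adjusted p = 0.0465). Except for CENPC, each of these 6 had a smaller log2 fold change and a smaller standard error there than with all libraries. In the other direction, 1 member, CENPE, was called without control 1, without control 2 and without control 3, where 0.602%, 0.679% and 1.7% of the tested genes fell. Without FTO siRNA 1 there were 3 members lower (2.1% of the tested genes fell) and without FTO siRNA 2 there were 4 (3.31%).

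**Figure D3:**
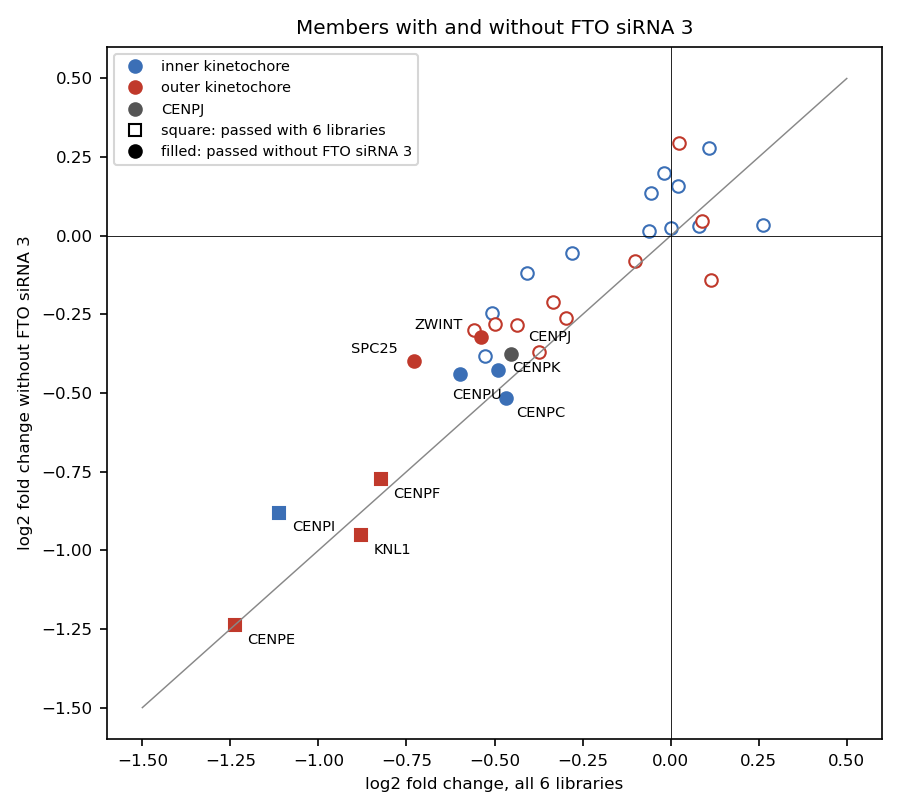
Log2 fold change of each member with all 6 libraries (x axis) against that without FTO siRNA 3 (y axis), with the line of equal values; squares passed with all libraries and filled symbols passed without FTO siRNA 3. CENPE, KNL1 and CENPF lie near the line and SPC25 moves from -0.73 to -0.40, while 10 members are filled.

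The genes that fell include the longest transcripts of the set. Taking the longest annotated transcript, CENPF has 10307 bases, KNL1 9573, CENPP 8766, CENPE 8612, CENPC 6940 and CENPJ 5020, and the other 26 members are shorter than 5000. Of the 6 long members 3 fell, with a median log2 fold change of -0.68, and of the 26 shorter ones only CENPI, with 3262 bases, fell, with a median of -0.29. Length moved with the change across the transcriptome too. The median was -0.13 over 3966 tested genes of at least 5000 bases, of which 6.96% fell, and 0.10 over 10970 shorter ones, of which 2.69% fell. Across genes, Spearman's rho of log2 fold change and length was -0.32 over the 32 members and -0.21 over 14936 genes, which share the same libraries and are not independent replicates.

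Length and library came together. The 6 long members had medians of -0.69, -0.54 and -0.83 against the control mean in FTO siRNA 1, 2 and 3, and the 26 short members -0.07, -0.19 and -0.67. Over all tested genes of at least 5000 bases these medians were -0.31, -0.12 and -0.01. The long members were thus low in each treated library, and the short ones mainly in FTO siRNA 3. With the trends on length and GC content removed from each library, 4 members fell, where 3.83% of the tested genes did. CENPE fell by 0.89 ± 0.20 (edgeR adjusted p = 0.0306), KNL1 by 0.56 ± 0.14 (adjusted p = 0.0404), CENPI by 1.09 ± 0.28 (adjusted p = 0.0448) and ZWINT by 0.72 ± 0.19 (adjusted p = 0.0491). CENPF lost its call in that fit (-0.47 ± 0.20, adjusted p = 0.166).

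**Figure D4:**
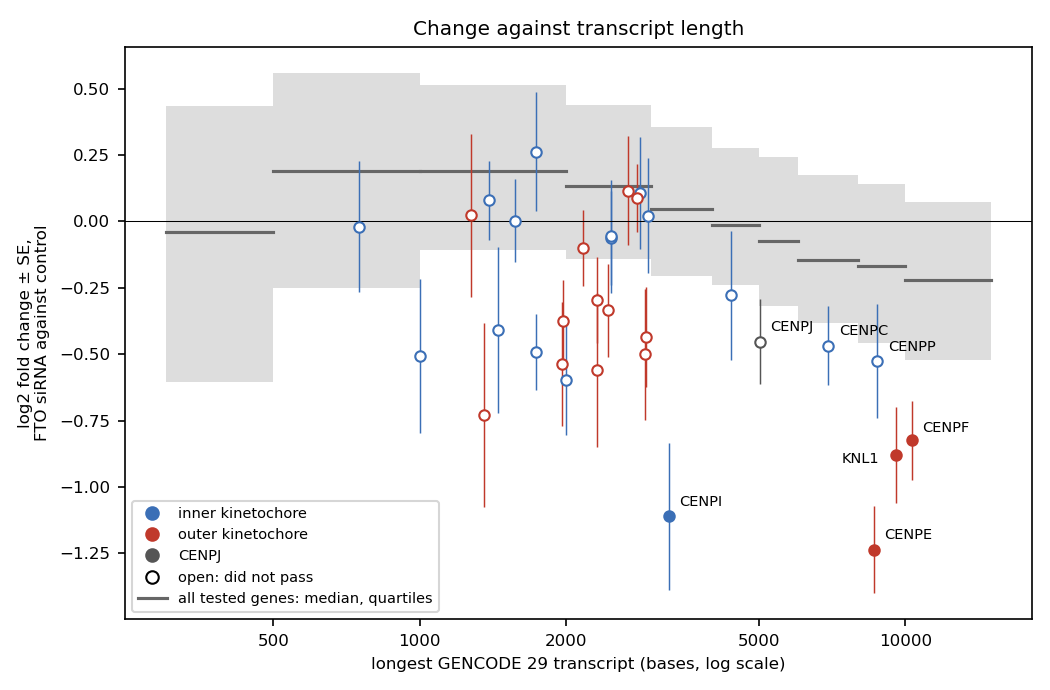
Log2 fold change with its standard error (y axis) of the 32 members against the length of the longest transcript (x axis, log scale); filled points passed the test, and the grey line and band are the median and quartiles of all tested genes in bins of length. CENPE, KNL1 and CENPF, which passed, and CENPP, CENPC and CENPJ, which did not, lie under the lower quartile of genes of their length. The grey median is 0.19 at 1000 to 2000 bases and -0.22 from 10000 bases on.

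Compared per kilobase of the longest transcript, the members covered a wide range of levels in the control libraries. ZWINT was the highest at 79.8 ± 2.71 CPM per kilobase (SD, n = 3) and apart from the next gene, CENPB, at 36.2 ± 1.29. CENPW (33.6), CENPN (32.4), CENPK (29.4), NDC80 (27.7), SPC25 (27.6), SKA2 (27.3) and CENPF (26.5) followed. CENPA was at 9.21 ± 0.32, KNL1 at 11.1 ± 0.36 and CENPE at 21.4 ± 3.54 CPM per kilobase. CENPC and CENPP were the lowest at 2.95 ± 0.08 and 1.77 ± 0.12. Of the 31 neighbouring pairs in this order, 22 had overlapping ranges in the control libraries. The ranges leave aside that both genes of a pair were measured in the same libraries. Whether the genes of these pairs differ was not tested. The longest transcript may not be the one expressed, which affects this order.

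Promoter entries were matched by symbol for 26 of the 32 members, and MIS18A, CENPH, CENPL, CENPM, KNL1 and CENPJ were without one. Only the first entry of a member was taken, while every window of the table was counted for the shares beside it. The sets are therefore not chosen alike. In the window from 250 bases before to 50 after the start, TTTGAA occurred on either strand in 11 of the 26 members (42.3%) and in 15.2% of all 35116 windows of the table. The 11 were CENPA, CENPC, CENPN and CENPO of the inner and NDC80, NUF2, SPC25, ZWINT, SKA1, SKA3 and CENPF of the outer kinetochore. CCAAT occurred in 14 members (53.8%) and in 34.6% of all windows, and 6 members, CENPA, CENPC, CENPN, SPC25, ZWINT and CENPF, held both words. TTTAAA occurred in 3 members, CENPA, CENPE and CENPF (11.5%, and 12.2% of all windows). An E2F word (TTTCCCGC, TTTCGCGC, TTTGCCGC or TTTGGCGC) occurred in CENPA, CENPU and MIS12 (11.5%, and 3.31% of all windows). The 11 members with TTTGAA had a median log2 fold change of -0.44 and the 15 without it -0.30.

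Lists of other genes of the checkpoint and chromosome attachment were described in the same way. Beside their counts, 3.83% of all tested genes fell, and 11.5% were lower at an unadjusted p under 0.05. KNTC1, a subunit of the RZZ complex that holds checkpoint proteins at the corona, was at 101, 103 and 95.9 CPM in the controls and at 47.1, 59.05 and 64.6 CPM after FTO siRNA. It fell by 0.81 ± 0.15 (edgeR adjusted p = 0.0144), 1 of 13 checkpoint genes. SGO2, which protects centromeric cohesion, had 71.4 to 78.6 CPM in the controls and 42.7 to 55.8 CPM after FTO siRNA. It fell by 0.59 ± 0.15 (adjusted p = 0.04), 1 of 7 genes of the passenger complex and cohesion. Of 10 motors and microtubule regulators none passed (5 had an unadjusted p under 0.05, and DESeq2 called 2 lower), and the smallest p there was that of KIF18A (-0.41 ± 0.13, adjusted p = 0.0892). The call of KNTC1 was lost without control 1, control 2 or control 3 (highest adjusted p 0.0787) and with the length and GC trend removed together with the replicate block (0.0575). The call of SGO2 was lost without any of the controls (highest adjusted p 0.153) or FTO siRNA 1 (0.0622), with no filter (0.0587), a fold minimum of 1.2 (0.102), the replicate block (0.104), the trend removed (0.132) and the trend removed with the block (0.199).

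Other markers moved with the groups, where 3.83% of all tested genes fell and 7.53% rose. Of 8 proliferation markers MKI67 fell by 1.30 ± 0.25 and TOP2A by 0.94 ± 0.20 (edgeR adjusted p = 0.015 and 0.0202), and the median was -0.40; both lost the call without control 1 or control 2 and with the length and GC trend removed, alone or with the replicate block, and TOP2A also without control 3 (highest adjusted p 0.0975). The medians of these 8 genes against the control mean were -0.23, -0.27 and -1.22 in FTO siRNA 1, 2 and 3. Of 12 immune cell markers 7 could be tested and 5 rose (PTPRC, CD3D, CD2, NKG7 and CD74). Their summed level was 51.7 to 102 CPM in the controls and 79.0 to 112 CPM after FTO siRNA, most of it LYZ; without LYZ, left out after its values were seen, it was 4.37 to 4.95 and 19.1 to 28.3 CPM. PTPRC, the leukocyte marker, had 0, 1 and 1 counts in the controls and 20 in each FTO siRNA library, and CD3G and MS4A1 had none in any control. Of 9 fibroblast markers 6 could be tested and 2 rose, with a summed level of 79.7 to 112 CPM in the controls and 142 to 187 CPM after FTO siRNA, and DCN, THY1 and FAP had no count in any control. Of 6 endothelial markers, with a sum of 20.3 to 25.5 and 14.997 to 23.9 CPM, the 1 tested, PECAM1, did not pass (unadjusted p = 0.0414); CDH5 had 46 counts in FTO siRNA 3 and 1 to 3 in the other libraries, VWF, TEK and EMCN had no count in any control and KDR none in any library. Of 5 erythroid markers the 1 tested, HBB, did not pass (summed level 0.609 to 2.05 CPM in the controls and 1.11 to 1.30 CPM after FTO siRNA). The part of other cells' RNA, or of RNA quality, in the kinetochore values was not tested.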

How the data were processed

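RNA sequencing libraries of HepG2 cells were analysed, 3 after control siRNA and 3 after FTO siRNA, grouped by the labels. The authors deposited raw counts per Ensembl gene, 1 table per library. Per the submitters' processing notes, tools included TopHat2 2.0.11, TopHat and HTSeq (their roles are not recorded); no source used here gives the strand setting or the handling of shared reads. Identifiers were matched to GENCODE 29 (56753 of 60483, and all 32 members) for symbols, chromosomes, transcript length and GC content. Files and annotation may differ in build, so no coordinates come from them; promoter windows are RefSeq's on GRCh38.p14. No 2 libraries agreed within sampling noise.

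Genes were filtered with filterByExpr, scaled by TMM and tested in 1 fit over all of them with edgeR 4.0.16 (R 4.3.3; glmQLFit with legacy=FALSE, glmQLFTest, two-sided, Benjamini-Hochberg adjustment). The standard error is the size of the log2 fold change over the square root of F. Shared words are 50-base words of the longest transcript found in other, non-overlapping genes. The test was tried first on simulated data with 200 of 15025 genes changed. It called 3.66% of those changed 1.5 times, 33.3% of those changed 2 times and 87.9% of those changed 4 times. Of its 83 calls there, 9 were of unchanged genes. A member that did not pass can therefore still have changed, and a call can be false. The same test called 1707 genes in the data, so the simulated shares may not hold there. Floors cover counting error only.

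The members, lists and tests were chosen with earlier results of these data known. The rule for named genes was FTO; all members; full values for those past the threshold, the 4 lowest and 4 highest log2 fold changes, CENPA, NDC80 and KNL1; called genes of the other lists, or the one with the smallest p; MKI67 and TOP2A. Some results of the other lists are not reported here. Values of further members were added where FTO siRNA 3 or a complex's partners set them apart. Alternatives were RLE, upper quartile or no factors; no filter or 1 CPM in 3 libraries; DESeq2 1.42.0; limma-voom (limma 3.58.1); edgeR's older method; a fold minimum of 1.2; leaving out each library; the replicate number as a block; and lowess trends (span 0.3) on length and GC content removed.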

Additional observations from a re-analysis of the deposited data

How the results depend on the processing

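CENPE, CENPF, KNL1 and CENPI were lower by the test in every fit with all 6 libraries, except that CENPI did not pass with a fold minimum of 1.2 (adjusted p = 0.0604), CENPF with the length and GC trend removed, and none of the 4 with that trend removed together with the replicate block (adjusted p from 0.0523 to 0.214), where the number of members lower was 0, also in the inner (0) and outer (0) kinetochore, and 952 of the tested genes were called. No member was called higher in any fit. DESeq2 called 7 members lower, 4 of them inner (CENPC, CENPI, CENPK and CENPU), and 2509 of all tested genes (16.7%) in either direction. Without composition factors 2 inner members were lower (CENPI and CENPK). With a fold minimum of 1.2 the inner count was 0, and 1123 of all tested genes were called where the main test called 1707. With 1 library left out, members lower ranged from 1 to 10, inner members from 0 to 4, outer members from 1 to 5 and all genes called from 330 to 4582. No pairing by replicate number was seen. Same-numbered libraries had correlations of -0.14, -0.06 and -0.25 of their deviations from the group means, and no library correlated best with its own number. With 3 libraries a group and FTO siRNA 3 apart from its group, these values cannot exclude a pairing. With the replicate number as a block 4 members were lower and 1041 genes were called.

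Members near 0 turned sign, and none of them passed in any fit. MIS18A (0.0023) came to -0.024, -0.047, -0.024, -0.0048, -0.0025, -0.13 and -0.13 with RLE factors, no filter, DESeq2, limma-voom, the replicate block and the 2 fits with trends removed, CENPT (0.02) to -0.0058, -0.029, -0.0056, -0.024, -0.023, -0.18 and -0.20 and PMF1 (0.02) to -0.0037, -0.026, -0.0023, -0.086, -0.061, -0.22 and -0.27 in the same fits. CENPB came to -0.18 and -0.21 and CENPH to -0.037 and -0.040 with trends removed, and CENPW to 0.020 with upper quartile factors. With 1 library left out the values ranged from -0.11 to 0.026 for MIS18A, from -0.28 to 0.16 for CENPT, from -0.31 to 0.30 for PMF1, from -0.13 to 0.28 for CENPB, from 0.020 to 0.10 for CENPH, from -0.20 to 0.015 for CENPL, from -0.21 to 0.14 for CENPN, from -0.25 to 0.20 for CENPW and from -0.14 to 0.24 for MIS12. The cause of these changes was not tested. No member lay near the counting floor.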
